A study of Mus musculus with 12 samples.

Results

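The Polycomb complex genes examined here were Ezh1, Ezh2, Eed, Suz12 and Jarid2, which encode subunits of Polycomb repressive complex PRC2, and Rnf2, Ring1, Cbx7, Pcgf6 and Kdm2b, which encode subunits of the PRC1 complexes. These 10 genes were taken by name from the 21938 protein-coding genes of the GENCODE vM21 annotation, by no rule on the measured values. Earlier results of these data were known when the genes were chosen. For each of them, every ATAC-seq peak was taken whose summit lay inside the gene or within 5 kb of either end. ATAC-seq marks open chromatin, since a transposase inserts sequencing adapters where DNA is accessible. Mouse embryonic stem cells (ESCs) of 2 genotypes were assayed, wild-type (WT) and Suv39h double null (Suv39h dn), the latter lacking the H3K9 methyltransferases Suv39h1 and Suv39h2. Each genotype was profiled as asynchronous ESCs, as mitotic ESCs arrested with demecolcine (0.1 µg/ml, 6 h) and collected by shake-off, and as mitotic chromosomes that were released from arrested cells and flow sorted, with 2 libraries for each of the 6 groups and 12 libraries in all. All ESCs were grown with serum and leukaemia inhibitory factor.

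The asynchronous samples entered the reaction as nuclei extracted with detergent, the mitotic samples as 50000 whole cells, and the sorted samples as 2000000 chromosomes that had been kept in polyamine buffer and stained for the sort with a pair of DNA dyes. Cell cycle stage and handling therefore cannot be told apart in a comparison of preparations. With 1 line for each genotype, genotype and line cannot be told apart either, and nothing states that the 2 libraries of a group came from separate cultures, so p-values measure only the spread between these libraries.

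PRC2 places methyl groups on lysine K27 of histone H3, with Ezh1 or Ezh2 as the catalytic subunit, Eed and Suz12 as the core partners that make the enzyme active, and Jarid2 as an accessory subunit that helps to bring the complex to its targets. PRC1 attaches ubiquitin to histone H2A through Rnf2 (Ring1B) or Ring1 (Ring1A). Cbx7 reads the mark left by PRC2, Pcgf6 defines a variant PRC1, and Kdm2b binds unmethylated CpG islands and leads another variant PRC1 to them. In ESCs both complexes hold developmental genes in a repressed state. 

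A peak was called a promoter peak when its summit lay within 1 kb of an annotated transcript start of the gene. Overlapping or adjoining peaks of the 12 libraries were joined into merged regions, which were numbered along the chromosome within each gene. The first set of sequences shows promoter regions that were called mostly in cells (Pcgf6 region 6), mostly in chromosomes (Pcgf6 region 5, Suz12 regions 1 and 4) or in both (Jarid2 region 3, Suz12 region 3). Pcgf6 and Jarid2 had a promoter peak in the most libraries, 9 each, and Suz12 was added after its values were seen. Sequences are from the GRCm38 (mm10) assembly, 5′ to 3′ on the strand of the gene, up to 100 bases on each side of the median summit with annotated exons left out, and capitals mark CACGTG (an E-box), CCAAT (the Nf-y motif) and GGGCGGG (the Sp/Klf motif) on either strand.
Pcgf6 region 6 (chr19:47050907-47051046, minus strand): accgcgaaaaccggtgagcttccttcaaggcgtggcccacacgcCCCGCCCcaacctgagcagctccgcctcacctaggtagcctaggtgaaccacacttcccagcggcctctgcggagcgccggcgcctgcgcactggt
Pcgf6 region 5 (chr19:47050363-47050450, minus strand): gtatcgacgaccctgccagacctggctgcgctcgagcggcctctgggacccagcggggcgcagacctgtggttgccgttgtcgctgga
Jarid2 region 3 (chr13:44730619-44730773, plus strand): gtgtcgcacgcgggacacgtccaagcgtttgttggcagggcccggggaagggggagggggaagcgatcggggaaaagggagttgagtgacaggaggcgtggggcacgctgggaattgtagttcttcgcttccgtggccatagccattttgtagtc
Suz12 region 1 (chr11:79992521-79992721, plus strand): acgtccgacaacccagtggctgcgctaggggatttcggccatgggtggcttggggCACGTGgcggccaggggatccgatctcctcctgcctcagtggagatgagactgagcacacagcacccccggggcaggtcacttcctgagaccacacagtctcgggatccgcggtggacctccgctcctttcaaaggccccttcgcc
Suz12 region 3 (chr11:79993002-79993105, plus strand): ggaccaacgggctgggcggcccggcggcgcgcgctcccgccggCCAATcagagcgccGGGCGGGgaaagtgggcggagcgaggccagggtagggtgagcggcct
Suz12 region 4 (chr11:79993600-79993787, plus strand): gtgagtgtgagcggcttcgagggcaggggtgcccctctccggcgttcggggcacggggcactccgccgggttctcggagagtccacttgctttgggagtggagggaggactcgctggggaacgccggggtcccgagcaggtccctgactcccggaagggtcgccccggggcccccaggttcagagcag

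The second set shows the promoter region that was called in all 4 libraries of asynchronous ESCs at Ezh1, and 3 regions in introns of Eed and Jarid2. Outside promoters the Jarid2 regions were called in the most libraries, 12 each, followed by Ring1 region 1 (6 libraries), whose window is exon throughout and is not printed, and by Eed region 3 (5 libraries). None of the motifs searched is in these windows, which says only that those letters are not in them.
Ezh1 region 5 (chr11:101226464-101226577, minus strand): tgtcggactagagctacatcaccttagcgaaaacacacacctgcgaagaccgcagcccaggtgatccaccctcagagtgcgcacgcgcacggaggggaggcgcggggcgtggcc
Eed region 3 (chr7:89975702-89975902, minus strand): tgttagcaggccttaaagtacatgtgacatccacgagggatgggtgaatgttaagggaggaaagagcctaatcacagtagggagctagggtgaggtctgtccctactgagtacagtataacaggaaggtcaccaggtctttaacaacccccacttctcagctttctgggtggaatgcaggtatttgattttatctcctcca
Jarid2 region 15 (chr13:44869514-44869714, plus strand): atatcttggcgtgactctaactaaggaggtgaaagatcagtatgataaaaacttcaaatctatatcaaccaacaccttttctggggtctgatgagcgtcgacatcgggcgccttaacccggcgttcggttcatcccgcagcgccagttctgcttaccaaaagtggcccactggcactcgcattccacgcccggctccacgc
Jarid2 region 16 (chr13:44869871-44870071, plus strand): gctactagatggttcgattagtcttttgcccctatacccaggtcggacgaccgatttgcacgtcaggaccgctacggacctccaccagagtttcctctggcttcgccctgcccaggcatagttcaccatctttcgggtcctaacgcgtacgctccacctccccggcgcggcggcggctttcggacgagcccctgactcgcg

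The deposited lists held 22344 to 80602 peaks in asynchronous cells, 1746 to 14328 in mitotic cells and 44885 to 67027 in mitotic chromosomes, and the median peak rested on 5 to 8 fragments at its summit. Because the lists hold called peaks only, a gene without a peak was one at which none was called in that library, and closed chromatin cannot be read from it. The library Suv39h dn mitotic 1 had the shortest list, with 1746 peaks. Its lowest background, which stands for depth here, was 0.204 fragments. That of the asynchronous WT library 1, with 22344 peaks, was 0.149, so list length did not follow this measure alone. Why the list lengths differed was not tested. As a check of the cell type, 4 to 8 of 10 ESC marker genes had a promoter peak in the asynchronous libraries, against 0 to 1 of 6 fibroblast genes and 1 to 3 of 4 trophoblast genes. Of all protein-coding genes, 31.3% to 55.5% had one there. In mitotic cells 0 to 4 ESC, 0 fibroblast and 0 to 1 trophoblast genes had one. In chromosomes the numbers were 4 to 6, 1 and 2 to 3. These counts do not tell ESCs from trophoblast cells.

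In asynchronous ESCs 2, 9, 6 and 7 of the 10 Polycomb genes had a promoter peak, in the order WT 1, WT 2, Suv39h dn 1 and Suv39h dn 2. In mitotic ESCs the numbers were 4, 7, 0 and 7, and in mitotic chromosomes 5, 7, 7 and 5. The means were 6 ± 2.94, 4.5 ± 3.32 and 6 ± 1.15 genes (SD, n = 4 each), so the preparations overlapped. A promoter peak was called at 31.4%, 52.0%, 31.3% and 55.5% of all protein-coding genes in the asynchronous libraries, at 16.2%, 24.8%, 3.61% and 29.1% in the mitotic ones and at 37.2%, 50.9%, 42.8% and 42.2% in the chromosome ones, in the same order. The Polycomb genes lay below that share in asynchronous WT 1 and mitotic Suv39h dn 1 and above it in the other 10 libraries. A promoter peak could lie at any annotated start, of which the Polycomb genes have 3 to 19 each. The shares over all genes were not matched for the number of starts. Of the 10 genes, 9 had a promoter peak in at least 6 libraries, as did 36.2% of all protein-coding genes, and 0 had one in all 12 (1.1% of all genes).

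**Figure D1:**
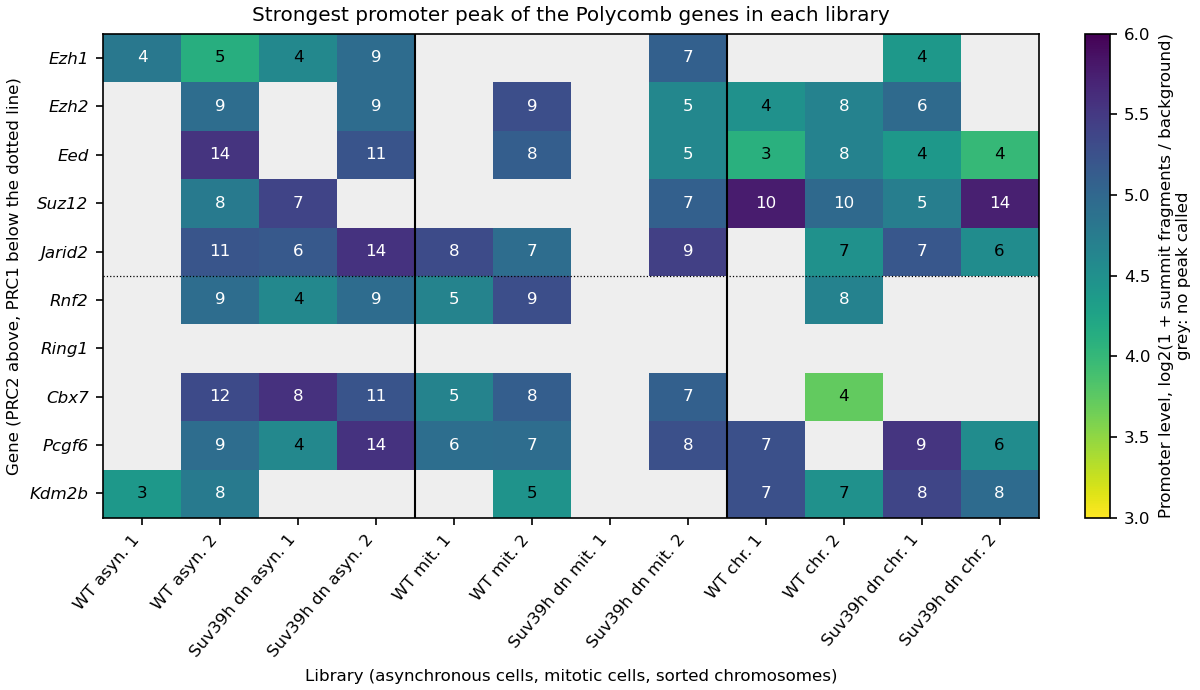
Promoter level of each Polycomb gene (rows) in each of the 12 libraries (columns). Colour gives log2(1 + summit fragments / background) of the strongest promoter peak, numbers give its summit fragments, and grey means that no peak was called. Ring1 had none in any library, Ezh1 was called in all 4 asynchronous libraries, and Eed, Suz12 and Kdm2b in all 4 chromosome libraries.

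The calls at single genes are described next by preparation. In the comparisons of preparations given below, 0 genes had an adjusted p under 0.05. Ezh1 (chr11:101191115-101226463), the less active of the methyltransferases, had a promoter peak in all 4 asynchronous libraries (22.3% of all genes had one in all 4). Its summits held 4, 5, 4 and 9 fragments there, 7 in the mitotic Suv39h dn library 2, 4 in the chromosome Suv39h dn library 1, and no peak was called in the other 6 libraries. On the scale log2(1 + summit fragments / lowest background of the library), with 0 for no peak, asynchronous ESCs had a mean level of 4.61 ± 0.36, mitotic ESCs of 1.27 ± 2.54 and chromosomes of 1.10 ± 2.2 (SD, n = 4 each). The asynchronous libraries lay apart from most, but not all, of the others.

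Eed, Suz12 and Kdm2b had a promoter peak in all 4 chromosome libraries (21.1% of all genes), whereas 0 of the 10 genes did in all 4 mitotic libraries (2.1% of all genes). The strongest promoter peak of Suz12 (chr11:79993106-80034123) held 10 and 10 fragments in the WT chromosome libraries and 5 and 14 in the Suv39h dn chromosome libraries. In cells it was called in the asynchronous libraries WT 2 (8 fragments) and Suv39h dn 1 (7 fragments) and in the mitotic library Suv39h dn 2 (7 fragments). At Kdm2b (chr5:122870665-122989823) the chromosome libraries held 7, 7, 8 and 8 fragments, and the peaks in cells were those of the asynchronous WT libraries, with 3 and 8 fragments, and of the mitotic WT library 2, with 5. Eed (chr7:89954654-89980983) held 3, 8, 4 and 4 fragments in chromosomes, 14 and 11 in the asynchronous libraries numbered 2, and 8 and 5 in the mitotic libraries numbered 2. Every chromosome library was thus called at these genes, while in cells Eed was called in the 4 libraries with the longest list of their group. At Eed and Kdm2b no single promoter region was called in more than 3 chromosome libraries, since libraries had their peak at different places around the annotated starts, whereas regions 1 and 4 of Suz12 were each called in all 4.

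A promoter peak in all 4 chromosome libraries and in at most 1 mitotic library was found at Suz12 and Kdm2b (11.9% of all genes). The opposite arrangement, at least 3 asynchronous libraries and at most 1 chromosome library, was found at Ezh1, Rnf2 and Cbx7 (9.72% of all genes). Rnf2 (chr1:151458004-151500955), the main ubiquitin ligase of PRC1 in ESCs, held 9, 4 and 9 fragments in the asynchronous libraries other than WT 1, 5 and 9 in the WT mitotic libraries, and 8 in the chromosome WT library 2. Cbx7 (chr15:79915807-79971119) held 12, 8 and 11 fragments in the same 3 asynchronous libraries, 5, 8 and 7 in the mitotic libraries other than Suv39h dn 1, and 4 in the chromosome WT library 2.

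The other promoters were called in similar numbers of libraries of each preparation. Jarid2 (chr13:44729474-44921643) and Pcgf6 each had a promoter peak in 3 of 4 libraries of every preparation. Within 1 kb of the 5′ end, Pcgf6 again had a peak in 3 libraries of every preparation. Jarid2 had one there in 2 asynchronous, 0 mitotic and 1 chromosome libraries, and its other calls lay at internal starts. Jarid2 held 6 to 14 fragments where it was called and Pcgf6 (chr19:47033617-47050906) 4 to 14. Ezh2 (chr6:47530139-47595341), the main methyltransferase of PRC2 in dividing cells, was called in 2 asynchronous, 2 mitotic and 3 chromosome libraries, with 4 to 9 fragments. Ring1 (chr17:34020792-34024680) had no promoter peak in any library, as did 25.4% of all genes. Its window held 1 region, 3457 bp upstream of the nearest Ring1 start (chr17:34028022-34028203), which lay within 1 kb of a start of the neighbouring gene H2-Ke6. That region was called in 3 asynchronous and 3 mitotic libraries, with 7 to 12 fragments, and in 0 chromosome libraries.

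The preparations were compared for every protein-coding gene by an exact two-sided permutation test of the 8 libraries, with the 70 arrangements giving 0.0286 as the smallest p and Benjamini-Hochberg adjustment over all genes tested. The 3 comparisons share libraries, so their values are not independent of each other. In each of them 0 genes had an adjusted p under 0.05, and the smallest adjusted p was 0.153, 0.107 and 0.189 for mitotic ESCs against asynchronous ESCs, chromosomes against asynchronous ESCs and chromosomes against mitotic ESCs.

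Between mitotic and asynchronous ESCs, 0 of 9 Polycomb genes tested had an unadjusted p under 0.05, while 18.6% of all genes tested did with a lower level in mitosis and 0.0296% with a higher one. The median difference was -0.32 over the Polycomb genes and -2.19 over all genes. Ezh1 had the lowest difference of the 10, at -3.34 (unadjusted p = 0.143, exact permutation test), and the levels of Ezh2, Jarid2 and Pcgf6 differed by 0.01, -0.06 and 0.00. A level near 0 difference here joins libraries with and without a peak, and the SD in each preparation was 2.5 to 2.9 for these 3 genes.

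Between chromosomes and asynchronous ESCs, 0 of 9 had an unadjusted p under 0.05, against 6.73% of all genes higher in chromosomes and 19.9% lower. The level of Suz12 was 5.30 ± 0.53 in chromosomes and 2.54 ± 2.94 in asynchronous ESCs (SD, n = 4 each), a difference of 2.76 (p = 0.143, exact permutation test). That of Kdm2b differed by 2.72 (p = 0.0571, exact permutation test). Ezh1, Cbx7 and Rnf2 had lower means in chromosomes, by -3.51, -3.10 and -2.45 (exact permutation tests with p = 0.0571, 0.143 and 0.257).

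Between chromosomes and mitotic ESCs, Kdm2b was the 1 Polycomb gene of 9 with an unadjusted p under 0.05, with a higher level in chromosomes, as 14.1% of all genes had. Its level was 5.01 ± 0.40 in chromosomes and 1.11 ± 2.23 in mitotic ESCs (SD, n = 4 each). The difference of 3.90 had the smallest p that 8 libraries allow (p = 0.0286, exact permutation test, adjusted p = 0.189), with the level higher in 4 of 4 chromosome libraries than in every mitotic library. The 1 mitotic library with a peak, WT 2, had a level of 4.46, close to the 4.48 of the chromosome WT library 2. The other mitotic libraries had no call and so a level of 0. The Kdm2b promoter peaks lay at internal starts of the gene. Within 1 kb of its 5′ end Kdm2b had a peak in 0 of the 12 libraries, whereas Eed and Suz12 had one there in all 4 chromosome libraries and Ezh1 in all 4 asynchronous ones. The difference at Kdm2b was 0 both for the 5′ end and with peaks of q at or under 1e-05 alone. Without any 1 of the chromosome libraries the unadjusted p was 0.0571 (exact permutation test). Suz12 differed by 4.03 (p = 0.0857, exact permutation test). The median difference was 0.06 over the Polycomb genes and 1.48 over all genes.

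Genotypes were compared with the labels permuted within preparations, which gives 216 arrangements and a smallest p of 0.00926. The level in Suv39h dn and WT differed at an unadjusted p under 0.05 for 0 of the 9 Polycomb genes tested, against 0.66% of all genes tested, and 0 genes had an adjusted p under 0.05. The largest differences, Suv39h dn minus WT, were -2.17 for Kdm2b (1.72 ± 2.67 against 3.89 ± 1.93, SD, n = 6 each, p = 0.139, exact permutation test), 1.68 for Ezh1 (p = 0.167, exact permutation test) and -1.67 for Rnf2 (p = 0.222, exact permutation test). A promoter peak that both libraries of WT had and both of Suv39h dn lacked was found at Kdm2b in asynchronous ESCs (0.479% of all genes) and at Rnf2 in mitotic ESCs (1.02% of all genes). Within 1 preparation the smallest p that 2 libraries against 2 allow is 0.333, so neither can be told from the spread between libraries. For Suz12, Eed and Ezh2, the core of PRC2 beside Ezh1, the differences were 0.90, -0.20 and -0.81 (p = 0.528, 0.602 and 0.667, exact permutation tests). The SD of either genotype was 2.4 to 2.9 for these genes (SD, n = 6 each). Like the SD given for Kdm2b, it is taken over all preparations and so also contains the differences between them.

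The number of peaks was counted over the whole windows. Asynchronous libraries held 12, 37, 15 and 44 peaks in the 10 windows, mitotic libraries 9, 13, 2 and 17, and chromosome libraries 15, 34, 20 and 16. None of the 10 genes differed between genotypes at an unadjusted p under 0.05 (0.143% of all genes tested did). Jarid2 and Kdm2b, whose windows are the longest, held 54 and 42 peaks over the 12 libraries and Ring1 held 6. The 54 peaks of Jarid2 include 12 at each of its intron regions 15 and 16, which are not unique sequence. Per length, the windows held 1.72 to 6.30 peaks per 100 kb in asynchronous ESCs, above the density over all genes in 4 of 4 libraries. In mitotic ESCs they held 0.286 to 2.43 peaks per 100 kb, above all genes in 4 of 4 libraries, or in 3 of 4 without the 2 Jarid2 intron regions described last. In chromosomes they held 2.15 to 4.87 peaks per 100 kb, above all genes in 1 of 4 libraries.

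**Figure D2:**
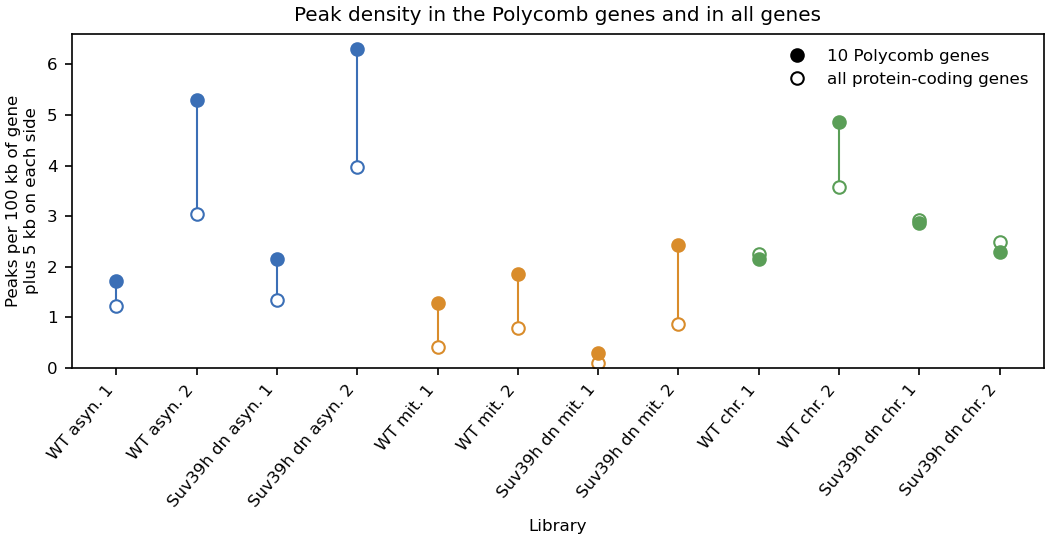
Peaks per 100 kb (vertical axis) in the windows of the 10 Polycomb genes (filled points) and of all protein-coding genes (open points) in each library, coloured by preparation. The Polycomb genes lie above all genes in the 8 libraries from cells and in 1 of 4 chromosome libraries.

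The place of the peaks within the promoters was compared between preparations, a comparison that was added after the data were seen. Of the promoter peaks of the Polycomb genes, 29 of 44 (65.9%) had their summit within 150 bp of an annotated start in asynchronous cells, 19 of 24 (79.2%) in mitotic cells and 13 of 49 (26.5%) in chromosomes. The median distance was 59.5 bp, 41 bp and 292 bp. These values pool genes and libraries and were not tested, and of the 49 peaks in chromosomes Kdm2b gave 15 and Suz12 11. At Eed the median distance was 249 bp in asynchronous cells and 57 bp in chromosomes. At every other gene with promoter peaks it was longer in chromosomes than in asynchronous cells. Most summits in cells lay upstream of the start, with 6 of 44 downstream in asynchronous cells and 4 of 24 in mitotic cells, whereas 32 of 49 (65.3%) lay downstream in chromosomes.

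**Figure D3:**
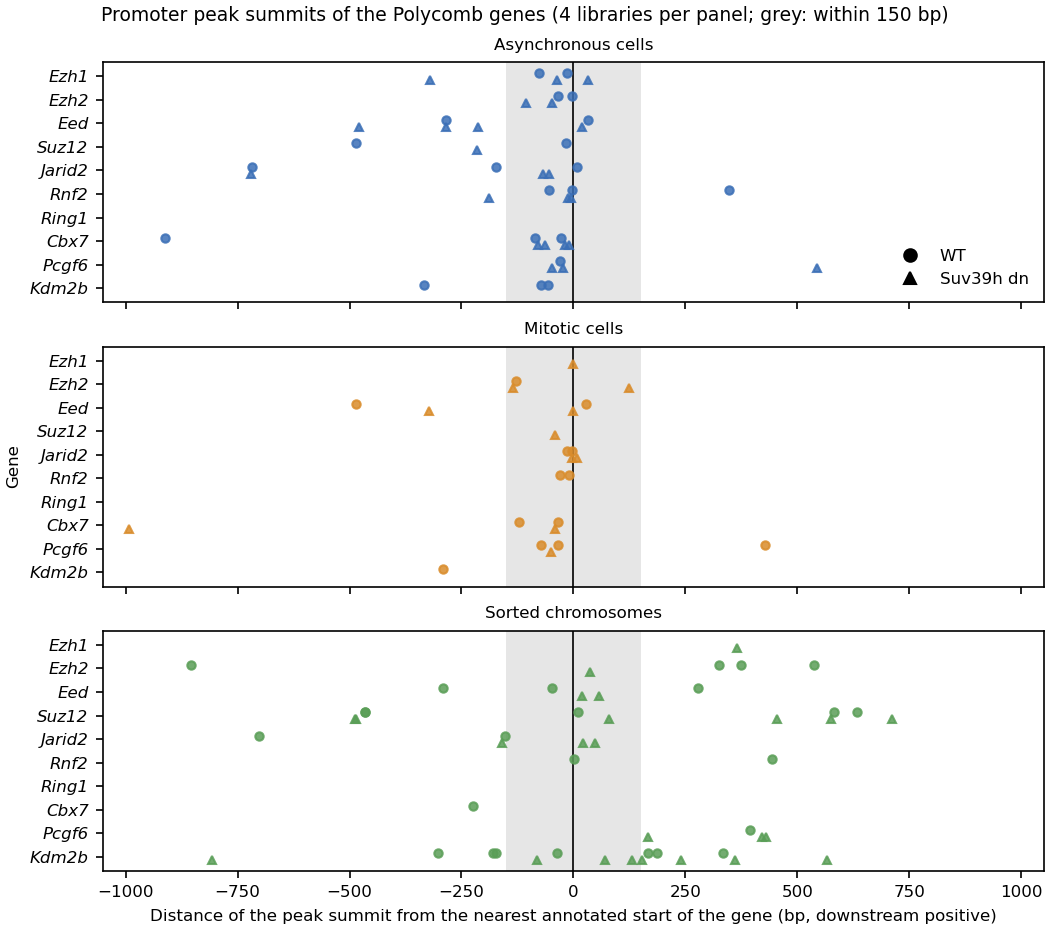
Distance in bp of each promoter peak summit from the nearest annotated start of its gene (horizontal axis, downstream positive) for the 10 Polycomb genes (rows), with 1 panel per preparation, circles for WT and triangles for Suv39h dn. Of the summits in cells most lie inside the grey band of 150 bp on each side of the start, and of those in chromosomes 13 of 49.

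Over all genes the chromosomes also stood apart. Of all promoter summits, 64.3% ± 4.85 lay within 150 bp of a start in asynchronous cells, 69.0% ± 1.52 in mitotic cells and 38.5% ± 2.10 in chromosomes (SD, n = 4 each). Chromosomes differed by -25.8 percentage points from asynchronous ESCs and by -30.5 from mitotic ESCs (p = 0.0286 each, exact permutation test, adjusted p = 0.0343 over 6 comparisons of this kind). The share downstream of a start was 29.4% ± 4.14, 22.8% ± 1.35 and 61.7% ± 1.00 (SD, n = 4 each), and chromosomes differed by 32.2 and 38.8 percentage points (p = 0.0286 each, exact permutation test, adjusted p = 0.0343). Mitotic ESCs differed from asynchronous ESCs by 4.67 percentage points in the near share (p = 0.114, exact permutation test, adjusted p = 0.114) and by -6.61 in the downstream share (p = 0.0286, exact permutation test, adjusted p = 0.0343). With libraries permuted only within genotype and replicate number, no comparison of this kind had a p under 0.05 (exact permutation test). The shares of the Polycomb genes in chromosomes lay on the same side of both cell preparations as those over all genes, while between mitotic and asynchronous ESCs their downstream share, 4 of 24 against 6 of 44, was higher and that over all genes lower.

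At Suz12 this can be read from region to region. Region 3, at the start itself, held 8 fragments in the asynchronous WT library 2, 7 in the mitotic Suv39h dn library 2, and 8 and 5 in the chromosome libraries WT 2 and Suv39h dn 1. Region 1, centred 485 bp upstream (chr11:79992530-79992725), held 10, 10, 5 and 14 fragments in the chromosome libraries and 6 in the asynchronous WT library 2. Region 4, centred 581 bp downstream in an intron (chr11:79993536-79993986), was called in all 4 chromosome libraries, with 7, 9, 4 and 9 fragments, and in 0 libraries from cells. At Pcgf6, region 6, 40 bp upstream of the start, was called in 6 libraries from cells, with 4 to 14 fragments, and in 0 chromosome libraries. Its region 5, 427 bp downstream in a coding exon, was called in 3 chromosome libraries and in 2 libraries from cells, with 5 to 9 fragments.

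Regions at the start that were called in cells but in 0 chromosome libraries also included Ezh1 region 5, 14 bp upstream (5 libraries), and Cbx7 region 16, 79 bp upstream (5 libraries). Rnf2 region 8, 12 bp upstream, was called in 5 libraries from cells and in 1 from chromosomes. Jarid2 region 3, 55 bp upstream of a start and in an intron of longer transcripts, was the promoter region called in the most libraries, 8, over all 3 preparations and with 6 to 14 fragments. At Kdm2b, which has 19 annotated starts, regions 3, 7 and 17 lay 333 bp and 167 bp downstream and 174 bp upstream of a start, and each was called in 3 chromosome libraries and in 0 libraries from cells.

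In all, the windows held 105 merged regions, 47 at promoters and 58 elsewhere. Of these, 60 (57.1%) were called in 1 library alone, against 63.0% of all 233809 merged regions in the genome. Chromosomes alone held 44 of the 105 regions (56.4% of all regions in the genome), asynchronous ESCs alone 32 (29.3%) and mitotic ESCs alone 3 (0.806%), and 7 were called in all 3 preparations (2.87%). These counts follow the length of the lists as well, and were not tested. Kdm2b had 25 regions, 16 of them in chromosomes alone, and Jarid2 had 19, 6 of them in chromosomes alone. At Rnf2, 6 of 8 regions were called in cells alone, and at Suz12 1 of 4.

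**Figure D4:**
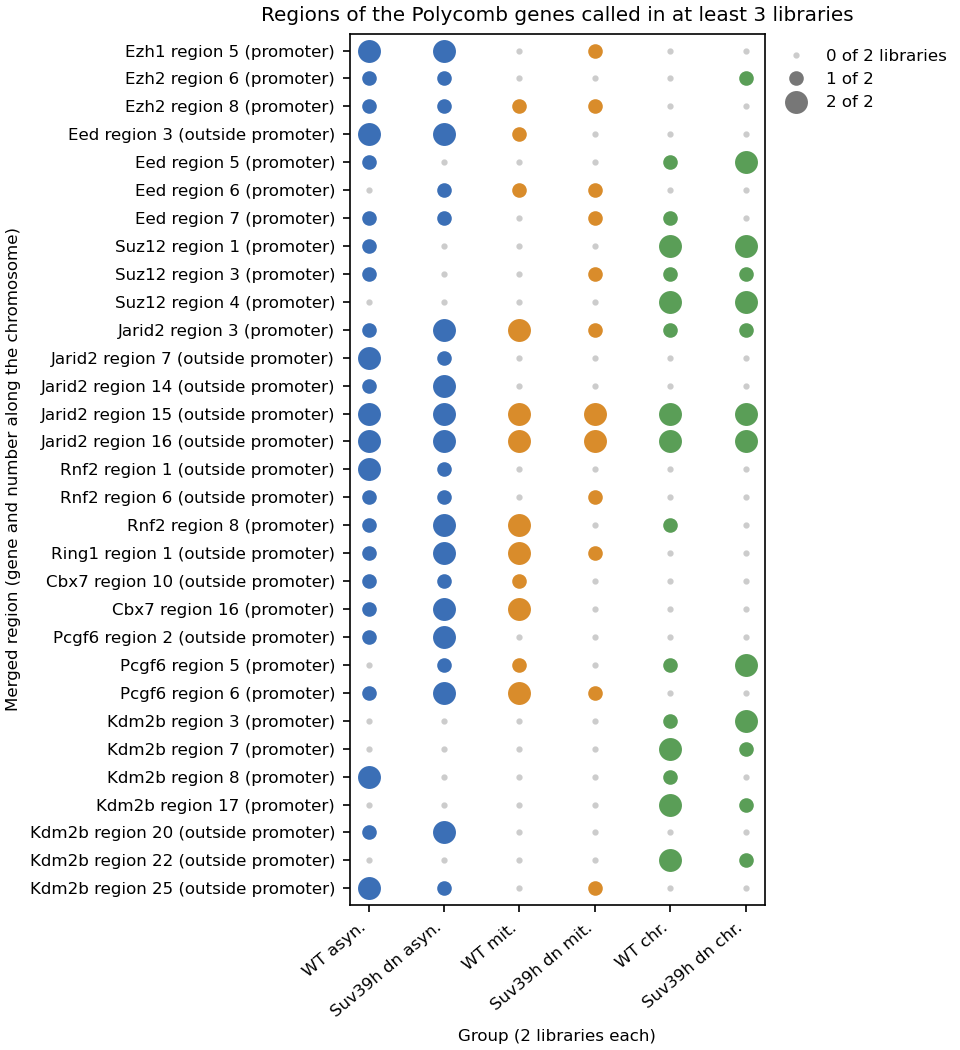
Merged regions of the Polycomb genes called in at least 3 libraries (31 rows of 105, against 19.4% of all regions in the genome), with the number of libraries that called each in the 6 groups (columns) as the size of the point. Of the 31 regions, 15 were called in cells alone, 5 in chromosomes alone and 11 in both, and both Jarid2 intron regions were called in all 12 libraries. Cells gave more libraries than chromosomes, so 3 calls were easier to reach in cells alone. This split was not counted over all regions of the genome.

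Outside promoters, regions called in 3 or more asynchronous libraries lay in introns of Eed, Jarid2, Rnf2, Pcgf6 and Kdm2b and upstream of Kdm2b and Ring1. Eed region 3 (chr7:89975598-89975910), 3504 bp from the nearest start, was called in all 4 asynchronous libraries, with 7, 17, 9 and 17 fragments, and in the mitotic WT library 2, with 8. The region outside promoters with the next highest summit, Eed region 8, held 15 fragments in the asynchronous Suv39h dn library 2 and was called in no other. Rnf2 region 1 (chr1:151461419-151461508) held 5, 13 and 10 fragments in asynchronous libraries, and Kdm2b region 25, 4853 bp upstream, held 7, 9 and 11 in asynchronous libraries and 4 in a mitotic one. Kdm2b region 22 was the region outside promoters called in 3 libraries of chromosomes and in no other, with 5, 8 and 11 fragments. Regions called in both libraries of 1 genotype and neither of the other in a preparation numbered 4 of 105. All were called in WT alone, as were 2.34% of all regions, and 0 in Suv39h dn alone, as were 2.43%. These were Rnf2 region 8 and Cbx7 region 16 in mitotic ESCs, Pcgf6 region 7 in chromosomes and Kdm2b region 8 in asynchronous ESCs, and in mitotic ESCs, where the Suv39h dn library 1 has the shortest list, 0.278% of all regions were called in WT alone and 0.0595% in Suv39h dn alone.

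The base composition of the regions is given as a description, with no test. At promoters the median GC content of the 201 bases around the summit was 61.7% in the 21 regions called in chromosomes alone, 56.2% in the 17 called in cells alone and 65.7% in the 9 called in both, against 59.7%, 58.2% and 63.2% over all promoter regions of the same kind. Outside promoters it was 56.7% in the 23 regions called in chromosomes alone and 48.8% in the 33 called in cells alone, against 54.7% and 49.3% over all such regions. Of those 33, 12 lay for more than 50% of their bases in annotated repeats, and of those 23, 0 did, against 27.9% of all such regions of either kind. In the 201 bases around the summit and on both strands, 25.5% of the 47 promoter regions held CCAAT and 25.5% GGGCGGG, against 22.4% and 20.3% of all 43732 promoter regions. In the same windows the E-box CACGTG, the Yy1 motif AANATGGCG, the Nrf1 motif (by its consensus) and the E2f motif TTTCCCGC, which can overlap GGGCGGG read on the other strand, were each in 1 promoter region (2.13%, against 5.10%, 1.86%, 0.51% and 0.951% of all). The Esrrb motif TNAAGGTCA, the Ets motif CCGGAAGT and the Oct motif ATGCAAAT were in 0 of the 47 (0.693%, 2.40% and 0.727% of all). The promoter regions held 12.9 CpG dinucleotides on average, against 11.2 over all promoter regions.

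The peaks with the most fragments in the windows of the Polycomb genes lay outside promoters, in sequence that is not unique. Regions 15 and 16 of Jarid2 (chr13:44869567-44869692 and chr13:44869756-44870018), in an intron 28831 and 29188 bp from the nearest start, were called in all 12 libraries, as were 361 of the 233809 regions in the genome. Region 15 held 54, 59, 45 and 61 fragments at its summit in asynchronous cells, 68, 76, 55 and 85 in mitotic cells and 76, 89, 81 and 91 in chromosomes. Region 16 held 39, 53, 33 and 48, then 56, 71, 45 and 73, then 59, 87, 68 and 78. Apart from these 2 regions, no region of the 10 genes held more than 17 fragments in any library.

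**Figure D5:**
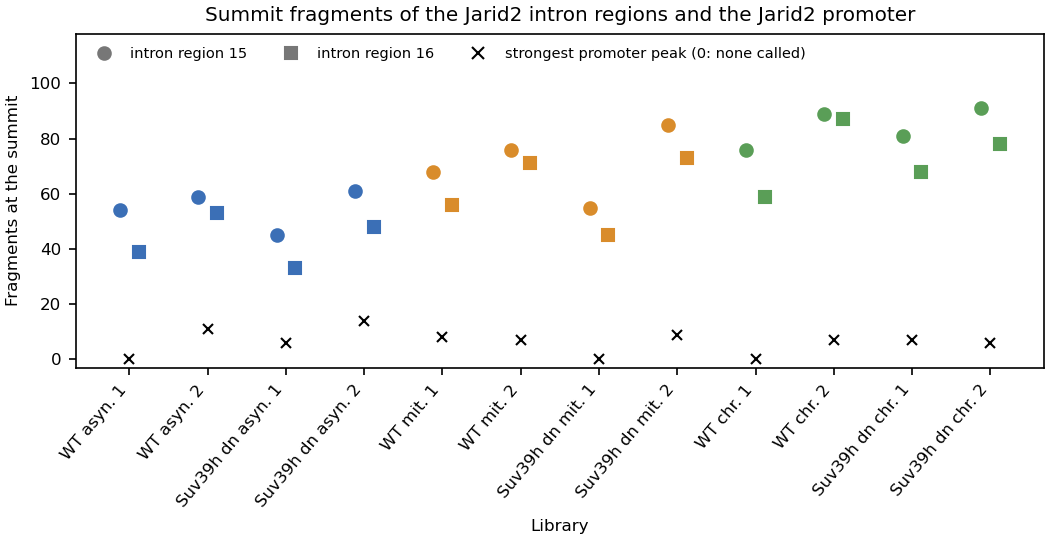
Fragments at the summit (vertical axis) of the Jarid2 intron regions 15 (circles) and 16 (squares) in each library, coloured by preparation, with the strongest Jarid2 promoter peak as crosses (0 where none was called). The intron regions hold 33 to 91 fragments in every library and the promoter at most 14.

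Fragment numbers depend on depth, and divided by the background of the library the 2 regions overlapped between preparations. For region 15 the ratio was 193 to 362 in asynchronous cells, 270 to 399 in mitotic cells and 272 to 408 in chromosomes. In their lists the 2 regions ranked between 58 and 236 by this ratio, 58 to 140 for region 15. They were also the 2 peaks of the 10 windows in the Suv39h dn mitotic library 1, and they remained in every list with a q at or under 1e-05. Neither is unique sequence. In the window printed for region 15, 57.9% of the 31-base words occur once in the assembled chromosomes of GRCm38. The most frequent word occurs 1636 times, and 31.8% of the bases are marked as repeat. In the window of region 16, 38.0% of the words occur once and 0% of the bases are marked as repeat. The median word there occurs 4 times and the most frequent 12 times. Copies in unplaced or missing sequence were not counted, so these numbers can be too low. None of these words occurs in the mitochondrial genome. The part of such copies in the height of these peaks was not tested. Of all 105 regions, 82 consisted of single-copy words alone and 4 held less than 50% of them.

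Other Polycomb genes were counted from a list of 34, with 8 genes of PRC2, 22 of PRC1 and 4 of enzymes that oppose the complexes. Of the 34, 10 to 24 had a promoter peak in asynchronous cells, 3 to 15 in mitotic cells and 17 to 23 in chromosomes. A promoter peak in all 4 libraries was found for 7 in asynchronous cells, 1 in mitotic cells and 11 in chromosomes. The 1 gene with a promoter peak in all 12 libraries was Phc2, which encodes a Polyhomeotic subunit of PRC1 that can polymerise. At an unadjusted p under 0.05, 4 of 27 genes tested were lower in mitotic than in asynchronous ESCs and 0 higher. Between chromosomes and asynchronous ESCs 4 of 33 were higher and 3 lower, and between chromosomes and mitotic ESCs 7 of 32 were higher and 0 lower (exact permutation tests, 0 genes after adjustment over all genes). The shares over all genes tested were those given for the 10 genes.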

How the data were processed

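The 12 libraries were grouped by genotype and preparation from the sample labels. As the labels and the methods of the study state, the authors trimmed reads (Trim Galore 0.4.4), aligned them to mm10 (Bowtie2 2.2.9, SAMtools 1.2), removed duplicate and mitochondrial reads, shifted the ends and kept fragments under 100 bp (deepTools), and called peaks in each library with MACS2, with bcl2fastq 2.20.0 named in the submitters' processing notes. Every row of the deposited lists gives the fold (ratio of pileup over background) at a summit, the −log10 of p and q values, and a score that was not used. Whether peaks in blacklisted regions had been removed from them was not tested.

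Peaks were assigned to genes of GENCODE vM21 by their summits. The fold and the p-value of MACS2 together gave the background and how many whole fragments covered the summit, which was possible for 100% of the 438517 peaks. The lowest background of a library, 0.149 to 0.328 fragments, stood for its depth, which is otherwise unknown from a peak list, and the precision of each value is set by the few fragments under it. The level of a promoter was log2(1 + summit fragments / lowest background), with 0 where no peak was called. Python 3.11.15 with numpy 2.4.6, pandas 2.3.3, scipy 1.17.1 and matplotlib 3.10.9 was used, with genome sequence from GRCm38.p6. Genes without a promoter peak in any library of a comparison were not tested. Scripts were tested on simulated data. The alternatives were a stricter q, equal list lengths, other promoter and window limits, another value for promoters without a peak, a replicate block, and each library left out.

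All 10 Polycomb genes were named, with their promoter regions and, elsewhere, regions called in at least 3 libraries of 1 preparation or in both libraries of 1 genotype alone. Further Polycomb genes were named only with a promoter peak in all 12 libraries or in none, or with an adjusted p under 0.05. The members and lists were chosen with earlier results of these data known, and Suz12 regions were printed and Eed region 8 named after their values were seen.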

Additional observations from a re-analysis of the deposited data

How the results depend on the processing

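Peaks with a q at or under 1e-05 alone left 3.5 peaks in the windows of the Polycomb genes per mitotic library and 4.5 per chromosome library, and 1.75 genes with a promoter peak per chromosome library. When each list was shortened to 1746 peaks, 0, 0 and 0.5 genes with a promoter peak and 2, 2 and 2.5 peaks remained per library of asynchronous ESCs, mitotic ESCs and chromosomes, so at equal length the promoter comparisons had almost nothing left to compare. With the 5′ end of each gene alone, 4.5 of the 10 genes had a promoter peak per chromosome library. The 1 Polycomb gene with an unadjusted p under 0.05 between chromosomes and mitotic ESCs, Kdm2b, became 0 under the stricter q, equal lengths, the 5′ end and the replicate block, and became 3 (Kdm2b higher, Cbx7 and Ring1 lower in chromosomes) with promoters without a peak set to the lowest level of the list, where the value of Ring1 is that lowest level alone. Between chromosomes and asynchronous ESCs 0 became 1 with promoters of 2 kb (Kdm2b) and with that lowest level (Cbx7). Under the stricter q, Ezh1 differed by 0.0368 between mitotic and asynchronous ESCs and Kdm2b by -1.19 between chromosomes and asynchronous ESCs. The cause of these changes was not tested.

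Leaving out each library in turn gave 0 to 2 Polycomb genes between chromosomes and mitotic ESCs, with 0 without any 1 chromosome library and 2, Kdm2b and Suz12, without the mitotic Suv39h dn library 2. It gave 0 to 1 between chromosomes and asynchronous ESCs (Kdm2b without the asynchronous WT library 2, Ezh1 without the chromosome Suv39h dn library 1), 0 to 1 between mitotic and asynchronous ESCs (Ezh1 without the mitotic Suv39h dn library 2) and 0 to 1 between genotypes (Kdm2b, by -2.92 in Suv39h dn, without the mitotic WT library 1). The adjusted counts were 0 in every alternative run.

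The share of promoter summits within 150 bp of a start differed between mitotic and asynchronous ESCs by 4.67 percentage points (p = 0.114, exact permutation test). This became 6.54 within 300 bp, -4.48 under the stricter q and -4.57 at equal lengths, and 2.70 to 6.34 with a library left out, 6.34 without the asynchronous WT library 1. The share downstream differed by -6.61, by -0.64 under the stricter q and 2.78 at equal lengths, and by -7.92 to -4.89 with a library left out, where each of the 4 mitotic libraries decided whether p was under 0.05. In chromosomes both shares kept their direction and call against either preparation in every alternative other than the replicate block. Under that block the differences in the near share were -25.8 and -30.5 and in the downstream share -6.61, 32.2 and 38.8, each with p = 0.125 (exact permutation test), the smallest that 16 arrangements allow. The replicate numbers were not taken to pair libraries in the main tests. The correlation over genes of the difference between libraries 2 and 1 in WT and in Suv39h dn was 0.184 (asynchronous), 0.127 (mitotic) and 0.0255 (chromosomes). That correlation cannot show a shift shared by all genes. The lowest background was higher in library 2 than in library 1 in both genotypes of every preparation. In asynchronous ESCs it was 0.149 (WT) and 0.172 (Suv39h dn) in library 1 and 0.306 and 0.304 in library 2. A pairing of libraries by replicate number therefore stays possible.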
